A study of Populus alba x Populus glandulosa with 18 samples.

Results

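The 6 genes described here, of 42950 gene models in the table, moved the same way in every tissue of trees that overexpressed *DET2*: Potri.003G063300, Potri.015G117350, Potri.010G230100, Potri.009G069000, Potri.006G186301 and Potri.003G190300. They are the genes other than the overexpressed *DET2* that passed as differentially expressed in the same direction in all 3 tissues of the *PagDET2*-OE lines (adjusted p of 0.05 or less in edgeR's quasi-likelihood test and a change of at least 2-fold). Of 20108 models tested in all 3 tissues, 7 met this rule, or 0.0348%, and these were *DET2* and the 6 genes. The genes were thus chosen by their folds and adjusted p between genotypes, and these folds are given below as a description, without a test. Of the genes, 3 were higher in the *PagDET2*-OE lines and 3 were lower, where 0.0199% of all genes tested passed as higher and 0.0149% as lower in the 3 tissues.

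RNA-seq was done on 18 libraries from stems of the hybrid poplar 84K (*Populus alba* × *P. glandulosa*), with 3 replicates in each of 6 groups. The 3 tissues were labelled shoot apical meristem (SAM), cambium (CZ) and xylem (XY), and each was taken from untransformed wild-type 84K and from trees overexpressing *PagDET2*. Trees of both genotypes were 2 months old and had received no other treatment according to the labels. SAM pooled the apex with the elongating internodes just under it, CZ was the bark with differentiating phloem and cambium, and XY was the surface of the trunk beneath. The transgene was the 84K coding sequence of *DET2* under the constitutive 35S promoter in pCAMBIA1300, so its expression was not limited to a cell type. According to the study, the libraries were made from several trees of each genotype. The labels do not say which tree or transgenic line each library came from, and p-values here measure the spread between these libraries. Fragments of the hybrid were aligned to the *P. trichocarpa* reference, which is not a parent of 84K, and all gene names, descriptions and coordinates are those of its v3.1 annotation.

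Brassinosteroids are plant steroid hormones that promote cell expansion, cell division and the differentiation of vascular tissue. *DET2* encodes a steroid 5α-reductase that acts early in their synthesis from campesterol. When the hormone is sensed by its receptor kinase at the cell surface, transcription factors of the BZR family become active in the nucleus and raise or lower the expression of many genes, including, by feedback, genes of brassinosteroid synthesis itself.

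Library totals ran from 7983668 to 12052409 counted fragments. A count of 0 thus allows a level of up to 0.249 to 0.376 CPM (a count scaled to a common library size). This limit is 3 counts over the library total before TMM scaling, and covers counting error only. On the TMM scale of the CPM values below, the limit is lower in SAM and CZ and higher in XY. There, 3 counts are 0.479 CPM in the first wild-type XY library. *DET2* (Potri.016G110600) checked the genotype labels: it had 46 to 81 counts in the wild-type libraries and 12777 to 25649 in the *PagDET2*-OE libraries. The tissue labels were checked with marker lists. Summed xylem markers had a median of 345 CPM in wild-type SAM, 956 CPM in CZ and 23000 CPM in XY, whereas summed phloem markers were about as high in XY (1130 CPM) as in CZ (1190 CPM) and at 73.2 CPM in SAM. Cambium markers were not highest in the tissue labelled cambium, with 530 CPM in SAM, 1700 CPM in CZ and 2170 CPM in XY. Apex and epidermis markers stood at 1230, 884 and 798 CPM. In the *PagDET2*-OE lines the xylem markers stood at 660 CPM in CZ and 26800 CPM in XY and the phloem markers at 1020 CPM in XY, and the cambium markers at 498, 1710 and 2070 CPM in SAM, CZ and XY. Whether this had a part in the folds below was not tested. In bulk RNA, fewer cells of a type and less RNA per cell cannot be told apart.

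The 6 genes lie on 5 chromosomes and share no described function. By FPKM (fragments per kilobase of transcript, scaled to the library), a scale that corrects for transcript length, Potri.003G063300 and Potri.015G117350 stood between the 50.2 and 66.9 percentiles of genes with counts in wild-type tissues, and Potri.010G230100 between the 3.18 and 6.48 percentiles. All 18 combinations of gene and tissue passed the filter on low counts. For Potri.003G063300 and Potri.015G117350 the lower genotype alone reached the cutoff in every library, whereas the other 4 genes passed through the genotype in which they were high. In none of the 18 combinations did the libraries of the genotypes overlap. Among all genes tested, 2.6% had no overlap and the same direction in all 3 tissues. Within 1 tissue, 16.9% of all genes in SAM, 15% in CZ and 20.3% in XY had every *PagDET2*-OE library above every wild-type library, and 16%, 16.8% and 16.2% had every one below.

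**Figure D1:**
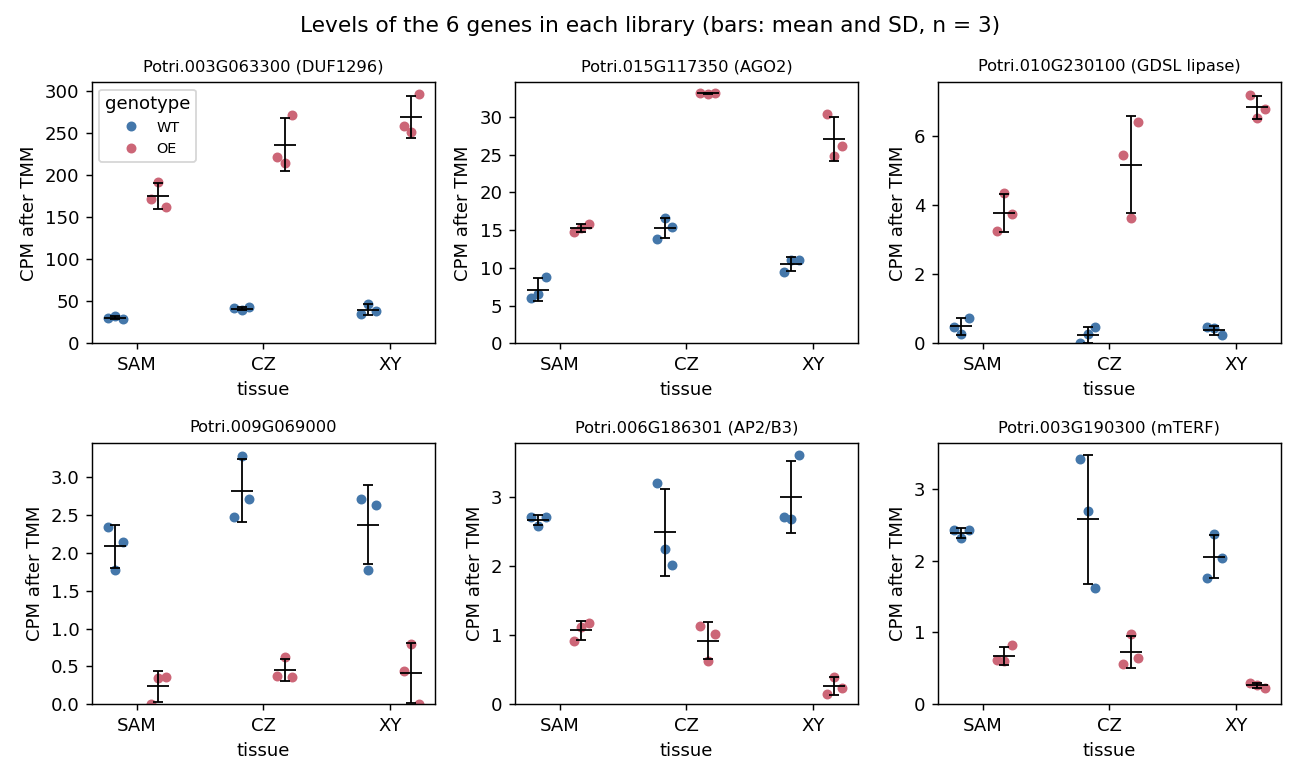
Level of each gene (CPM after TMM scaling, linear axes from 0) in the 18 libraries, by tissue and genotype; points are libraries, and bars are the mean and SD of 3 libraries. The wild-type (WT) and *PagDET2*-OE (OE) points do not overlap in any of the 18 combinations of gene and tissue.

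Potri.003G063300 was the most abundant of the 6. It is described as a kinase-related protein of unknown function with a DUF1296 domain and spans 8372 bp (chromosome 3, 9166931 to 9175302). In wild-type SAM it was at 30.4, 32.7 and 29.4 CPM, against 172, 192 and 162 CPM in the *PagDET2*-OE lines. In CZ the wild-type libraries had 41.7, 39.6 and 43.1 CPM and the *PagDET2*-OE libraries 222, 214 and 272 CPM. In XY the levels were 34.5, 47.4 and 38.3 CPM in the wild type and 259, 251 and 297 CPM in the *PagDET2*-OE lines. The lowest *PagDET2*-OE library was thus above the highest wild-type library of any tissue. The log2 fold change was 2.50 (SE 0.07) in SAM, 2.52 (SE 0.09) in CZ and 2.72 (SE 0.11) in XY, or 5.68-fold, 5.75-fold and 6.59-fold. On the FPKM scale its mean went from 9.11 to 51.2 in SAM, from 12.2 to 70.0 in CZ and from 8.02 to 50.7 in XY. This placed it between the 55.9 and 61.2 percentiles in the wild type and between the 90.3 and 94.2 percentiles in the *PagDET2*-OE lines.

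Potri.015G117350 carries the name *AGO2*. Argonaute proteins bind small RNAs and use them to find matching transcripts, and AGO2 of *Arabidopsis* is known for its role in defence against viruses. The model spans 1146 bp of chromosome 15 (13254772 to 13255917), and another *AGO2* model, Potri.015G117401, begins 214 bp after it. The wild-type SAM libraries had 6.07, 6.50 and 8.84 CPM and the *PagDET2*-OE SAM libraries 14.8, 15.3 and 15.8 CPM. In CZ the wild type had 13.9, 16.6 and 15.4 CPM against 33.2, 33.0 and 33.1 CPM. In XY the wild type had 9.42, 11 and 11 CPM against 30.4, 24.8 and 26.2 CPM. The *PagDET2*-OE levels in SAM lay within the range of the wild-type levels in CZ, so that the genotypes were apart within each tissue and not across tissues. Its folds were the smallest of the 3 higher genes, at 1.10 (SE 0.14), 1.12 (SE 0.09) and 1.34 (SE 0.14) on the log2 scale, or 2.14-fold, 2.18-fold and 2.53-fold. The 2-fold threshold of the rule lies just under these values, and without the first wild-type SAM library the SAM value was 1.0 on the log2 scale and no longer met it.

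Potri.010G230100 was near the limit of detection in the wild type. It is described as a GDSL-like lipase/acylhydrolase, a large family of plant hydrolases that act on esters such as lipids and cutin precursors, and spans 5285 bp of chromosome 10 (21223971 to 21229255). The wild-type libraries held 5, 3 and 8 fragments in SAM, 0, 3 and 6 in CZ and 3, 3 and 2 in XY. The *PagDET2*-OE libraries held 32, 51 and 41 in SAM, 58, 41 and 70 in CZ and 49, 49 and 59 in XY. No wild-type library exceeded 8 fragments and no *PagDET2*-OE library was under 32. The ratio of the pooled count rates was 7.78 in SAM (exact 95% interval 4.6 to 14.0), 19.6 in CZ (10.1 to 43.5) and 18.2 in XY (9.01 to 42.9). These intervals cover counting error only. The fitted log2 fold changes were 2.92 (SE 0.33), 4.26 (SE 0.46) and 4.10 (SE 0.36). Even in the *PagDET2*-OE lines its mean level per length was low, at 0.89 FPKM in SAM, 1.24 FPKM in CZ and 1.04 FPKM in XY.

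Potri.009G069000 has no symbol and no description. It spans 2292 bp of chromosome 9 (6822186 to 6824477), of which 461 bp are counted as transcript. The wild-type libraries held 25, 20 and 23 fragments in SAM, 24, 38 and 35 in CZ and 17, 12 and 22 in XY. In the *PagDET2*-OE lines there were 0, 4 and 4 in SAM, 4, 7 and 4 in CZ and 3, 6 and 0 in XY. A SAM library and an XY library, 2 of the 9 *PagDET2*-OE libraries, had no fragment. The wild-type rate was 8.47 times that of the *PagDET2*-OE lines in SAM (exact 95% interval 4.06 to 20.4), 6.21 times in CZ (3.58 to 11.5) and 6.12 times in XY (2.98 to 14.1). The fitted log2 fold changes were -3.03 (SE 0.47), -2.59 (SE 0.33) and -2.58 (SE 0.58), which makes it the gene with the lowest *PagDET2*-OE level relative to the wild type in SAM and CZ among the 6.

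Potri.006G186301 is described as an AP2/B3 transcription factor and spans 5630 bp of chromosome 6 (20077748 to 20083377). B3 domains bind DNA, and plant B3 proteins include auxin response factors and regulators of flowering and seed development. The wild-type libraries held 29, 29 and 29 fragments in SAM, 31, 26 and 26 in CZ and 17, 18 and 30 in XY. The *PagDET2*-OE libraries held 9, 13 and 13 in SAM, 12, 7 and 11 in CZ and 1, 3 and 2 in XY. The wild-type tissues stood at 2.66 ± 0.0714, 2.49 ± 0.629 and 2.99 ± 0.524 CPM in SAM, CZ and XY (mean ± SD, n = 3). The *PagDET2*-OE tissues stood at 1.07 ± 0.138, 0.92 ± 0.265 and 0.259 ± 0.129 CPM, the last resting on 6 fragments. The log2 fold change was -1.3 (SE 0.26) in SAM, -1.40 (SE 0.33) in CZ and -3.48 (SE 0.48) in XY. Of the 6 genes it had the adjusted p nearest to the limit of the rule in CZ. Without the first wild-type CZ library its value there was -1.20 (adjusted p = 0.0769 in edgeR's quasi-likelihood test), and without the second *PagDET2*-OE CZ library it was -1.18 (adjusted p = 0.0681 in the same test).

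Potri.003G190300 is described as a member of the mitochondrial transcription termination factor (mTERF) family, whose plant members act in the expression of organelle genes. It spans 1149 bp of chromosome 3 (19503074 to 19504222), on the same chromosome as Potri.003G063300 but not among its neighbours. The wild-type libraries held 26, 26 and 26 fragments in SAM, 33, 31 and 21 in CZ and 11, 16 and 17 in XY, and the *PagDET2*-OE libraries 6, 7 and 9, 6, 11 and 7, and 2, 2 and 2. Each *PagDET2*-OE library was thus under each wild-type library of the same tissue. The log2 fold change was -1.81 (SE 0.30) in SAM, -1.76 (SE 0.37) in CZ and -2.93 (SE 0.51) in XY. By pooled counts the wild-type rate was 3.53 times (2.18 to 5.96), 3.40 times (2.14 to 5.59) and 7.91 times (3.36 to 22.7) that of the *PagDET2*-OE lines.

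For scale, 1.01% of the 23971 genes tested in SAM passed the same thresholds, as did 1.24% of 23651 in CZ and 3.1% of 21273 in XY. Higher genes made up 0.471%, 0.892% and 1.15% of those tested in SAM, CZ and XY, and lower genes 0.534%, 0.351% and 1.95%. Nothing is read from the 6 genes against these shares, since the thresholds chose them. Another 31 of the genes tested in all 3 tissues passed in exactly 2 of them, 19 higher and 12 lower. Those with the smallest adjusted p in the tissue where they missed the rule were *ATX1* (Potri.010G236500), with log2 fold changes of 0.84, 1.39 and 1.16 in SAM, CZ and XY, and a *COX6B* model (Potri.018G099900), with 1.3, 0.94 and 1.40. *INT4* (Potri.006G015300), with -2.07, -0.51 and -1.81, and a gibberellin-regulated family member (Potri.014G020100), with 0.62, 1.12 and 1.76, complete the 4. Among genes that missed by fold alone, *COX6B* was nearest to the limit, followed by *BEE3* (Potri.012G055700, 0.93 in SAM), Potri.005G248600 (-0.89 in XY) and Potri.008G116500 (0.86 in SAM). Just inside it were Potri.015G117350 with 1.10 in SAM and Potri.006G186301 with -1.3 in SAM.

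Whether the fold was constant across tissues is not fixed by the rule, which set its sign and a minimum. The difference of the log2 fold changes between tissues was therefore estimated in 1 fit over the 18 libraries. Since the same folds chose the genes, the differences are given with their intervals as a description, without a test. Potri.003G063300 varied least, with a span of 0.22 between its highest and lowest log2 fold change. Its differences were 0.00 for CZ minus SAM (95% interval -0.32 to 0.32), 0.24 for XY minus CZ (-0.07 to 0.54) and 0.24 for XY minus SAM (-0.07 to 0.55). Potri.015G117350 had a span of 0.24 and intervals between -0.39 and 0.64. For these genes a difference in fold of more than about 0.64 on the log2 scale lay outside the intervals, whereas the other genes allowed larger ones. The fold of *DET2* itself had a span of 0.66. Its differences were 0.69 for XY minus SAM (95% interval 0.25 to 1.13), 0.57 for CZ minus SAM (0.15 to 1.0) and 0.12 for XY minus CZ (-0.32 to 0.55). These intervals are not adjusted for the number of genes. The adjusted p was 0.047 for XY minus SAM and 0.0878 for CZ minus SAM (edgeR).

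**Figure D2:**
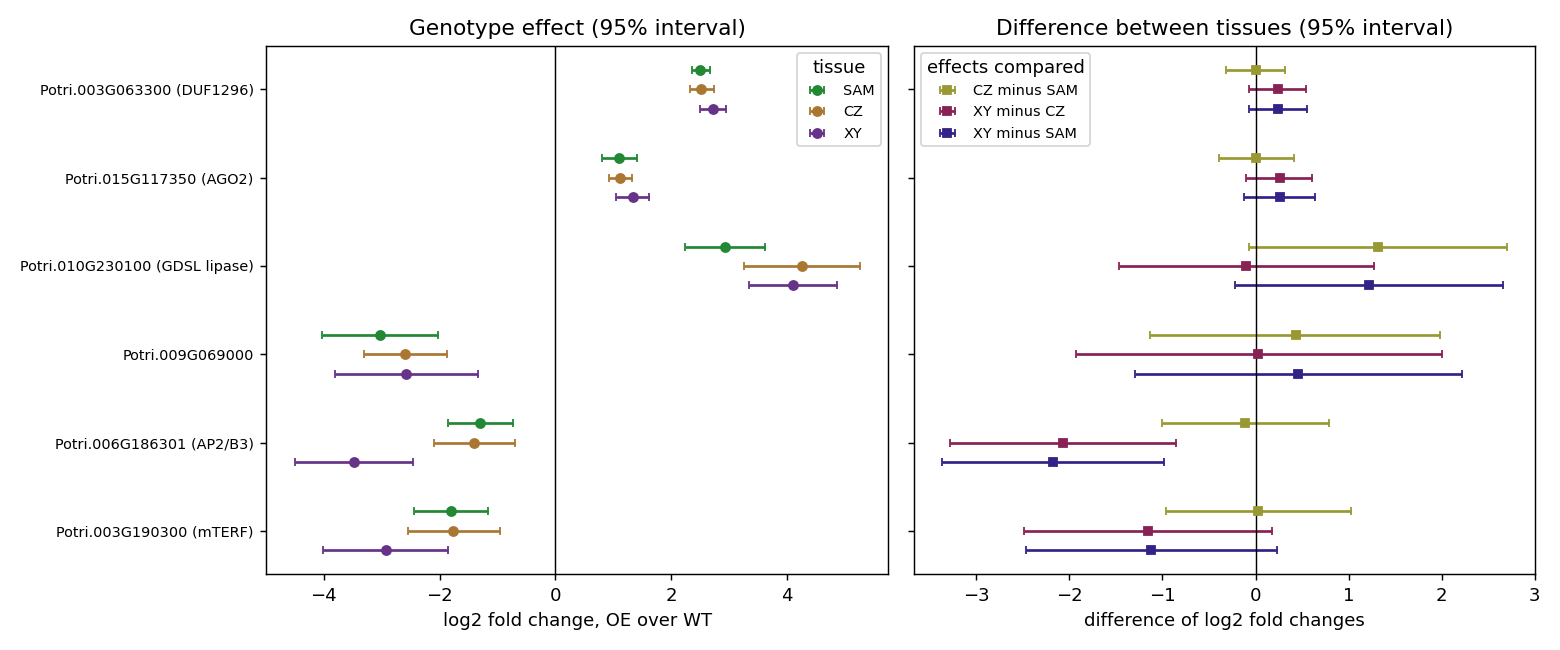
Left, log2 fold change of *PagDET2*-OE over wild type in each tissue; right, difference of the log2 fold changes between pairs of tissues; bars are 95% intervals from edgeR. In the right panel only Potri.006G186301 has intervals away from 0, for XY minus CZ (-3.28 to -0.85) and XY minus SAM (-3.37 to -0.98).

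Potri.006G186301 had the widest span of the 6, at 2.18. Its log2 fold change in XY stood at a difference of -2.07 from CZ (SE 0.59) and of -2.18 from SAM (SE 0.58), and CZ minus SAM was -0.11 (95% interval -1.0 to 0.79). The value in XY rests on 6 fragments in the 3 *PagDET2*-OE libraries. As in SAM and CZ, the gene passed the filter there only through the wild type. Without the first *PagDET2*-OE XY library the differences were -1.83 and -1.94. For scale, 13.3% of all genes passed an adjusted p of 0.05 for XY minus CZ, 10.1% for XY minus SAM and 9.27% for CZ minus SAM in edgeR, and nothing is read from the 6 genes against these shares.

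The intervals of the remaining 3 genes were wide and held 0 for every pair of tissues. Potri.003G190300 had a difference of -1.15 for XY minus CZ (95% interval -2.49 to 0.18) and of -1.12 for XY minus SAM (-2.47 to 0.23). Potri.010G230100 had 1.32 for CZ minus SAM (-0.07 to 2.70) and 1.22 for XY minus SAM (-0.22 to 2.66). Potri.009G069000 had differences of 0.03 to 0.46, with intervals that reached from -1.93 to 2.22.

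In the wild type alone, a comparison that the rule did not use, 2 of the 6 genes differed between tissues. Potri.015G117350 was higher in CZ than in SAM by 1.10 on the log2 scale (SE 0.13, adjusted p = 2.81e-08), and lower in XY than in CZ with a difference of -0.55 (adjusted p = 0.000612, edgeR). Potri.003G063300 was higher in CZ than in SAM by 0.43 (adjusted p = 0.00151, edgeR), and its XY and CZ levels had a difference of -0.05 (95% interval -0.28 to 0.18). The other 4 genes passed for no pair of tissues under TMM. A wild-type library held at most 38 fragments of any of them, and their intervals were wide. For XY minus CZ these were -1.0 to 2.0 for Potri.010G230100 and -0.91 to 0.33 for Potri.003G190300, so differences between tissues are not excluded. Among all genes, 67.4% differed between CZ and SAM, 71.3% between XY and CZ and 78.2% between XY and SAM. Levels in XY depend on scaling: TMM gave Potri.003G063300 0.38 and Potri.015G117350 0.56 more in XY than in SAM (adjusted p = 0.00427 and 0.000969, edgeR), whereas scaling by library totals gave -0.19 and -0.01, with the median of all genes moved from -0.13 to -0.69. For XY minus CZ, library totals moved that median from -0.11 to -0.66 and gave Potri.003G063300 -0.60 (adjusted p = 2.35e-05), Potri.009G069000 -0.80 (adjusted p = 0.0424) and Potri.003G190300 -0.84 (adjusted p = 0.0128, edgeR), which then passed. Potri.003G190300 also passed for XY minus SAM, with -0.77 (adjusted p = 0.0219, edgeR).

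Neighbours were read as the 5 gene models on each side of each gene. Of these 60 models, 13 had no count in any library, and 35, 35 and 31 were tested in SAM, CZ and XY. In SAM and in CZ 1 of 35 passed, or 2.86%, beside 1.01% and 1.24% of all genes. In XY 0 of 31 passed at 2-fold, and DESeq2 also gave 0. At any fold 2, 6 and 4 passed in SAM, CZ and XY, beside 15%, 11.5% and 19.4% of all genes. In XY 11 had an unadjusted p under 0.05. The share of all genes at an unadjusted p is not given, so nothing is read from that count. The median log2 fold change of the neighbours was -0.09, 0.02 and 0.11 in the 3 tissues, against 0 for all genes. Around Potri.003G063300, the nearest models were *BRX-LIKE2* (Potri.003G063200, 3901 bp away), with 0.00, -0.02 and 0.57, and Potri.003G063400, with 0.13, 0.02 and -0.24, and neither passed. Farther out, *PDAT1* (Potri.003G063100, 43659 bp away) had 0.08, 0.52 and 0.5 in SAM, CZ and XY. It passed under 2-fold in CZ and XY (adjusted p = 0.00773 and 0.0404, edgeR).

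**Figure D3:**
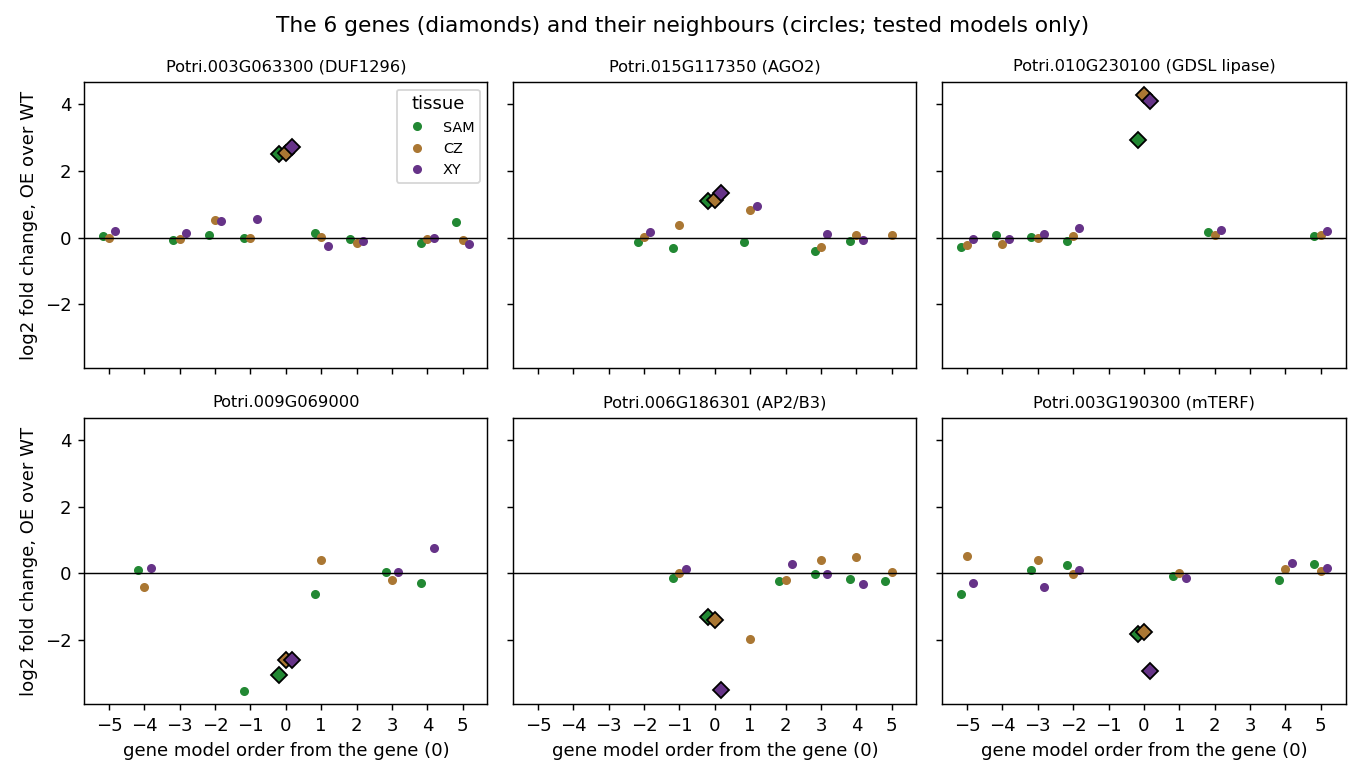
Log2 fold change of *PagDET2*-OE over wild type for each of the 6 genes (diamonds) and the 5 gene models on each side in chromosome order (circles), by tissue; models that were not tested in a tissue have no circle. The circles farthest from 0 are the SAM circle just before Potri.009G069000 (-3.53), the CZ circle just after Potri.006G186301 (-1.96) and the CZ and XY circles just after Potri.015G117350 (0.83 and 0.96); all others lie between -0.63 and 0.77.

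The neighbour that fell in SAM was *CPN10* (Potri.009G068900), a chaperonin 10 model that ends 1570 bp before Potri.009G069000 (chromosome 9, 6817955 to 6820615). Chaperonin 10 is the co-chaperone that closes the protein-folding chamber of chaperonin 60 in mitochondria. The wild-type libraries held 41, 35 and 32 fragments in SAM, 14, 26 and 10 in CZ and 16, 7 and 24 in XY. The *PagDET2*-OE libraries held 0, 7 and 2, 4, 2 and 3, and 0, 0 and 3. The genotypes did not overlap in any tissue. The log2 fold change in SAM was -3.53 (SE 0.46, adjusted p = 1e-04, edgeR). In CZ and XY it was under the filter on low counts. Without that filter the values were -3.54, -2.37 and -3.93 in SAM, CZ and XY (adjusted p = 2.58e-05, 0.00852 and 0.000612, edgeR), all in the direction of Potri.009G069000. The next tested model on the other side, *TT7* (Potri.009G069100, 11276 bp away), had -0.63 in SAM and 0.40 in CZ and did not pass. The other model described as chaperonin 10, Potri.001G274300, had log2 fold changes of 0.29, -0.06 and 0.57 in SAM, CZ and XY.

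Potri.006G186400, which has no description, begins 395 bp after Potri.006G186301. In CZ it held 9, 13 and 12 fragments in the wild type and 2, 2 and 4 in the *PagDET2*-OE lines, with a log2 fold change of -1.96 (SE 0.49, adjusted p = 0.0191, edgeR). DESeq2 gave -2.01 (adjusted p = 0.102), which did not pass. In SAM its summed counts were 22 and 12 and in XY 5 and 4, both under the filter. The *AGO2* model after Potri.015G117350 had lower fitted log2 fold changes than that gene in each tissue, but the difference was not tested. For Potri.015G117350, chosen by its folds, they were 1.10 (SE 0.14), 1.12 (SE 0.09) and 1.34 (SE 0.14) in SAM, CZ and XY. Potri.015G117401 was at 4.54, 2.69 and 4.64 CPM in wild-type CZ and 7.25, 6.58 and 7.05 CPM in the *PagDET2*-OE lines, a log2 fold change of 0.83 (SE 0.20, adjusted p = 0.0176, edgeR), which is under 2-fold. In SAM it had -0.14 (SE 0.26) and in XY 0.96 (SE 0.38), and neither passed. Whether these models and the genes beside them are parts of 1 transcript was not tested. *OPCL1* (Potri.010G230200) overlaps Potri.010G230100 by 2317 bp and was listed with 0 counts in every library. Whether counting used strand is not given in the sources used here, so fragments of overlapping models cannot be told apart.

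Relatives of the genes were taken from the annotation by name. Their counts at any fold stand beside 15% of all genes in SAM, 11.5% in CZ and 19.4% in XY that passed the adjusted p of 0.05 alone, and those at 2-fold beside 1.01%, 1.24% and 3.1%. Of 10 other DUF1296 models, 9, 9 and 8 were tested in SAM, CZ and XY and 0 passed at 2-fold, with 2, 0 and 1 lower at any fold. At an unadjusted p under 0.05 in edgeR there were 4, 1 and 2, and DESeq2 gave 0 at 2-fold. The share of all genes at an unadjusted p is not given, so nothing is read from such counts in any list. The log2 fold changes of these DUF1296 models lay between -0.52 and 0.16, against 2.50 to 2.72 for Potri.003G063300, which the rule chose by its folds. The small RNA pathway list (argonautes, dicers, RNA-dependent polymerases and their partners, together with 1 homogentisate prenyltransferase that shares a symbol) held 70 other models. Of these, 45, 51 and 44 were tested and 0 passed at 2-fold, while at any fold 2, 7 and 1 were higher and 5, 0 and 6 lower. An unadjusted p under 0.05 was reached by 15, 15 and 13, and DESeq2 gave 0 at 2-fold. Its medians were -0.08, 0.01 and -0.08. The *AGO2* copy on chromosome 12, Potri.012G118700, had -0.33, 0.02 and 0.08 and did not pass.

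**Figure D4:**
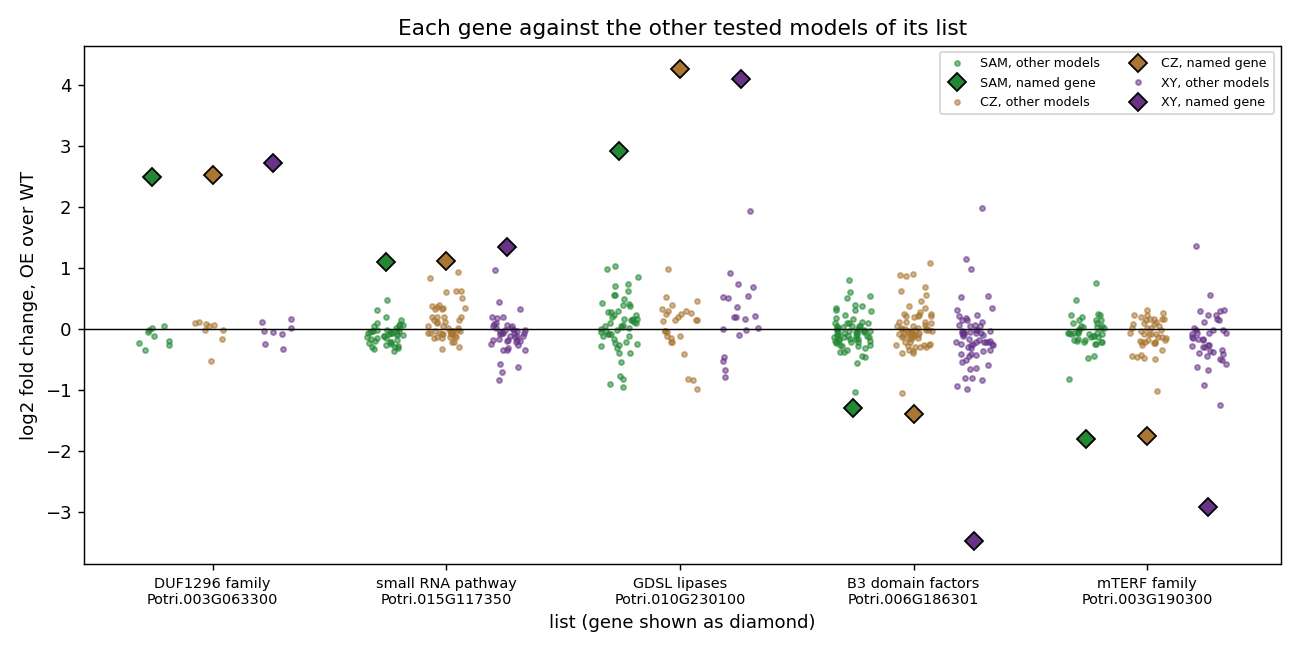
Log2 fold change of *PagDET2*-OE over wild type for the other tested models of each list (small circles) and for the gene of the 6 that belongs to it (diamonds), by tissue. The diamonds of Potri.003G063300 (2.50 to 2.72) lie above every DUF1296 circle (-0.52 to 0.16), and the other diamonds also lie outside the range of their lists. The rule chose the diamonds by these folds, so nothing is read from their place.

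GDSL lipases numbered 147 other models, of which 55, 27 and 20 were tested. In SAM 1 was higher at 2-fold (Potri.011G089700, 1.04) and in XY 1 (Potri.008G185500, 1.94, adjusted p = 0.00651 in edgeR), and 0 passed in CZ, where 7 had an unadjusted p under 0.05 and DESeq2 gave 0. With limma on FPKM 0 passed in SAM. At any fold 11, 2 and 5 GDSL models were higher and 8, 1 and 0 lower in SAM, CZ and XY. The list's medians were 0.06, 0.14 and 0.20, against 0 for all genes. Of 134 other B3 models, which include 6 ADP-ribosylation factors that share the symbol ARF, 69, 66 and 61 were tested and 2 passed at 2-fold, both higher in XY. In SAM and CZ 26 and 23 had an unadjusted p under 0.05, and DESeq2 gave 0 at 2-fold. The genes that passed were *TEM1* (Potri.008G117100, 1.15), whose *Arabidopsis* counterpart represses flowering, and Potri.014G031700 (1.98, adjusted p = 0.00554 in edgeR). Potri.006G186301 was lower in that tissue. In SAM and CZ *TEM1* was also higher, but under 2-fold, with 0.38 and 0.88 (adjusted p = 0.0378 and 6.8e-06, edgeR). So was Potri.014G031700, with 0.5 and 0.69 (adjusted p = 0.0286 and 0.0177, edgeR). At any fold 3, 3 and 4 B3 models were higher and 11, 3 and 12 lower in SAM, CZ and XY. In XY that is 16 of 61 beside 19.4% of all genes. The medians of the B3 list were -0.05, -0.02 and -0.17.

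The mTERF list held 59 other models, of which 44, 44 and 41 were tested. None passed at 2-fold in SAM or CZ, where 2 and 0 were lower at any fold, 5 and 4 had an unadjusted p under 0.05 and DESeq2 gave 0. In XY Potri.001G034500 was higher (1.36, adjusted p = 0.00151) and Potri.017G067600 lower (-1.25, adjusted p = 0.0182, edgeR). DESeq2 and limma on FPKM each gave only 1 mTERF model at 2-fold in XY. The mTERF model beside Potri.003G190300 on chromosome 3, Potri.003G190400 (5537 bp away), had -0.09, 0.02 and -0.15 and did not pass. Among 25 other models of brassinosteroid synthesis, 14, 12 and 13 were tested. In XY, where 3.1% of all genes passed, 3 were higher at 2-fold (*CYP90D1*, *CYP85A2* and *CYP85A1*) and 1 lower (*CPD*), all cytochrome P450 enzymes of the pathway, and in SAM and CZ 0 passed at 2-fold, with 1 lower at any fold in each. There 6 and 6 had an unadjusted p under 0.05, and at 2-fold DESeq2 gave 0 while limma on FPKM gave 0 and 1. Of 16 models listed by symbol as inactivating brassinosteroids, 6, 5 and 2 were tested and 0 passed at 2-fold, with 2, 1 and 0 lower at any fold. An unadjusted p under 0.05 was reached by 5, 3 and 0, and DESeq2 gave 0 at 2-fold. The medians of this list were -0.6, 0.03 and -0.13 in SAM, CZ and XY, against 0 for all genes. In SAM the 6 tested models were all lower, with log2 fold changes between -1.29 and -0.27. Since only *DET2* and the 6 genes met the rule, no list could hold another gene that passed at 2-fold in all 3 tissues.

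Likeness of pattern was measured as Pearson's r of log2(CPM + 1) over the 18 libraries, among 25726 genes. The values are a description, since the genotype split that chose the genes is shared by all libraries. The gene most like Potri.003G063300 was *DET2* (r = 0.99), followed by Potri.001G440700, described as an FAD-binding berberine family protein, and by Potri.010G230100 (both r = 0.971). For Potri.010G230100 it was also *DET2* (r = 0.977). Potri.015G117350 was most like *U2B''* (Potri.019G121400), a component of the splicing machinery, and *BEE3* (Potri.012G055700), a transcription factor gene named for its induction by brassinosteroid (both r = 0.914). *BEE3* had log2 fold changes of 0.93, 2.28 and 2.51 in SAM, CZ and XY. Potri.006G186301 and Potri.003G190300 were most like each other (r = 0.929), and *CPN10* was next for Potri.006G186301 (r = 0.861). Potri.009G069000 was most like Potri.013G011200, a drought-responsive family member (r = 0.889), whose own log2 fold changes were -0.37, -0.43 and -0.42.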

How the data were processed

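RNA-seq fragments were aligned by the authors with HISAT2 2.0.4 to *P. trichocarpa* v3.1 and counted per gene with StringTie 1.3.0. The deposited table holds whole-number counts and FPKM values, computed by the authors, for 18 libraries; library preparation strand is not given in the sources used here. The counts were analysed with edgeR 4.0.16 (limma 3.58.1, R 4.3.3). Genes were kept by filterByExpr (minimum count 10, minimum total 15, large group 10, proportion 0.7), libraries were scaled by TMM, and the quasi-likelihood test compared genotypes within each tissue; p-values were adjusted by Benjamini-Hochberg over all genes tested. Differences between tissues and wild-type tissue contrasts came from 1 fit over all libraries. CPM values use TMM factors over the 18 libraries. FPKM served for levels per length and for limma on log2(FPKM + 0.5), an alternative whose fold changes are on that scale and understate those of low genes. Other alternatives were DESeq2 1.42.0, RLE scaling, no filter, a replicate block, each library left out, wider neighbour windows and, chosen after seeing the data, library totals and replicate 3 as a batch. The fits were tested on simulated data. The members and the lists were chosen with earlier results of these data known. Genes named besides the 6 were the nearest to the rule, the neighbours and list members that passed, same-name copies and the 3 most similar to each; the remaining neighbours, copies and low-count genes were named after their values were seen.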

Additional observations from a re-analysis of the deposited data

Results flagged for a closer look

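The fold of Potri.006G186301, the AP2/B3 factor, stood apart in XY: the difference of its log2 fold change was -2.07 for XY minus CZ and -2.18 for XY minus SAM. It is listed here because these differences passed the adjusted p of 0.05 in edgeR (0.0195 and 0.0158), in the same libraries whose folds chose the gene, so that they are no independent test. Without the first *PagDET2*-OE XY library neither passed (adjusted p = 0.0623 and 0.0536, edgeR). XY minus CZ also did not pass without the third *PagDET2*-OE XY library (0.0521) or the first *PagDET2*-OE CZ library (0.0549). The 3 *PagDET2*-OE XY libraries held 1, 3 and 2 fragments of it, against 17, 18 and 30 in the wild type. The xylem markers stood at 23000 CPM in wild-type XY and 26800 CPM in *PagDET2*-OE XY, and their part in this was not tested.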

How the results depend on the processing

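All 252 member calls computed under alternatives kept their direction, and 247 also kept both thresholds. The alternatives reuse the libraries whose values chose the genes, so these counts are a description and no independent support. Those lost were Potri.006G186301 in SAM and CZ with limma on FPKM (-0.83 and -0.84 on the log2(FPKM + 0.5) scale), the same gene in CZ without a replicate (-1.20 and -1.18), and Potri.015G117350 in SAM without a replicate (1.0). The 7 genes that passed in all 3 tissues became 13 with no filter and 15 when all 18 libraries shared 1 fit; DESeq2 gave 8. The number of genes passing at 2-fold was 241 in SAM, 294 in CZ and 660 in XY. It was 129, 170 and 438 with limma on FPKM, 458 in CZ and 1113 in XY with all 18 libraries in 1 fit, and 451 in CZ with replicate 3 as a batch. Without single replicates it ran from 216 to 276, from 227 to 342 and from 602 to 749. Neighbours passing in CZ were 2 rather than 1 with 10 models on each side or within 50000 bp. Of the 6 genes, the count whose difference of effect between tissues passed ran from 0 to 1 without single replicates, for XY minus CZ and XY minus SAM. In wild-type tissues, scaling by library totals gave 4 of the 6 genes rather than 1 for XY minus CZ and 1 rather than 2 for XY minus SAM, with Potri.003G063300 at -0.19 and Potri.015G117350 at -0.01 for the latter. The cause of these shifts was not tested, other than that library totals move the median of all genes.

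With a replicate block, the 6 genes passed in every tissue, 7 genes passed in all 3, and 282, 413 and 684 genes passed in SAM, CZ and XY. Whether the replicate numbers pair the libraries is not settled, and the main fits did not pair them. Same-numbered wild-type and *PagDET2*-OE libraries correlated at 0.0175 to 0.15 in SAM, 0.0658 to 0.14 in CZ and 0.00822 to 0.0528 in XY. In SAM, CZ and XY, 2, 6 and 4 of 6 libraries correlated best with their own number. Between tissues of the same genotype, 6 of 6 did so for wild-type SAM and CZ, and 2 or 4 of 6 for the other pairs. Depth limits the 4 low-count genes, of which a library holds at most 70 fragments.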

Other observations

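Without the filter on low counts, 6 more genes passed in edgeR in the same direction in all 3 tissues. Potri.001G440700, described as an FAD-binding berberine family protein (chromosome 1, 47236913 to 47238496), had 0 counts in all 9 wild-type libraries. Its *PagDET2*-OE libraries held 12, 11 and 12 fragments in SAM, 17, 16 and 15 in CZ and 7, 15 and 20 in XY. Against a limit of 3 counts over the wild-type group, its observed *PagDET2*-OE rate was 11.7-fold in SAM, 16.7-fold in CZ and 13.0-fold in XY. The limit covers counting error in the wild type only, not in the *PagDET2*-OE counts. Potri.002G131650, which has no description, held 1, 1 and 1 fragments in wild-type SAM, 1, 0 and 1 in CZ and 0 in each XY library. In the *PagDET2*-OE lines it held 11, 9 and 7, 18, 16 and 11, and 9, 13 and 13. Potri.002G020101, a DEA(D/H)-box RNA helicase, had summed counts of 0, 19 and 4 in wild-type SAM, CZ and XY and 24, 80 and 113 in the *PagDET2*-OE lines. A receptor-like kinase of the S-locus lectin family (Potri.011G039000) went from 7, 13 and 0 to 32, 76 and 23, and a cupin (Potri.019G026400) from 5, 14 and 6 to 35, 76 and 33. The last was *CPN10*, the only one of them that was lower and the only one that neighbours one of the 6 genes.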
